A study of Mus musculus with 12 samples.

Results

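Glutathione synthesis and transferase genes were taken from a deposited table of gene FPKM in mouse kidney. FPKM counts fragments for each kilobase of a gene's length and scales them by a factor for each library. They comprised every protein-coding gene named as a soluble glutathione transferase (Gsta, Gstk, Gstm, Gsto, Gstp or Gstt), a microsomal transferase (Mgst), a glutathione peroxidase (Gpx) or a gamma-glutamyltransferase (Ggt), together with Gclc, Gclm, Gss, Gsr, Chac2, Glrx and Oplah. This rule used names alone and found 43 of 52636 genes. An expression minimum of FPKM 1 in at least 3 of 12 libraries was passed by 36 of the 43 and by 13540 genes in all.

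The 12 libraries fell into 4 groups of 3, from kidneys of 8-week-old male C57BL/6 mice, all wild type. Cisplatin+PCN mice were gavaged daily with pregnenolone carbonitrile (PCN) at 40 mg/kg for 4 days before and 3 days after 1 intraperitoneal dose of cisplatin at 20 mg/kg, and were killed 4 days after cisplatin. Cisplatin mice had the same dose of cisplatin and were gavaged with corn oil in place of PCN. PCN mice had PCN and saline in place of cisplatin, and control mice had corn oil and saline. PCN activates the mouse pregnane X receptor (PXR), a nuclear receptor of drug metabolism, and cisplatin is a platinum drug that injures the kidney tubule. The treatment protocol names the cisplatin animals both among those given PCN and among those given oil, so the groups here follow the library titles. The labels do not say that each library came from a separate animal, and each p-value therefore reflects only how far these libraries vary.

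Glutathione is a tripeptide of glutamate, cysteine and glycine that buffers the redox state of the cell and is joined to electrophiles by the transferases. Glutamate-cysteine ligase, made of the catalytic subunit Gclc and the modifier subunit Gclm, joins the first amino acids, and glutathione synthetase (Gss) adds glycine. Glutathione reductase (Gsr) regenerates the reduced form, and the peroxidases use it to remove peroxides. In the kidney, gamma-glutamyltransferase on the brush border of the proximal tubule breaks down glutathione and its conjugates outside the cell. Only the conjugates, after further steps, leave in the urine as mercapturates. Several of these genes are known targets of the transcription factor Nrf2, which binds the antioxidant response element, and platinum drugs are themselves conjugated with glutathione.

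Between 18914607 and 26530485 reads fell in genes per library, and FPKM 1 stood for 18.7 to 27.2 reads per kilobase of gene. The summed FPKM of 8 proximal tubule markers was 809 to 1577 in cisplatin+PCN kidneys, 691 to 822 in cisplatin kidneys, 2956 to 3017 in PCN kidneys and 2800 to 3074 in control kidneys. Haemoglobin and other red cell genes summed to 0.198 to 0.638 FPKM in cisplatin+PCN kidneys and 0.472 to 6.94 in cisplatin kidneys, against 337 to 543 in PCN kidneys and 318 to 1187 in control kidneys. In bulk tissue, fewer cells of a type and less RNA per cell cannot be told apart. The 3 cisplatin+PCN libraries varied widely. The first had the highest value of the 3 for 18 of 36 tested members and the lowest for 11, and the second had the lowest for 21. The proximal tubule marker sum was 1577 in the first, 809 in the second and 1040 in the third. Several results are also given without the first or without the second.

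Gclc and 11 of 20 tested transferases were higher in cisplatin kidneys than in control kidneys, while Chac2, Ggt1 and 4 transferases were lower. Of the 36 tested members, 16 were higher and 8 lower in cisplatin kidneys, and 12 did not pass (limma on log2(FPKM + 1), Benjamini-Hochberg adjusted p under 0.05). The share of members called was 66.7%, against a background of 63.9% over all tested genes. By direction, 44.4% of members were higher against 32.0% of all tested genes, and 22.2% were lower against 31.9%. The median log2 change was 0.22 over the members and 0.01 over all tested genes. The groups did not overlap for 16 higher and 10 lower members, where the background was 33.6% and 34.1% of tested genes. Of the 36, 4 members (Gsta1, Gstp3, Gstm6 and Ggt5) reached the expression minimum only through libraries with cisplatin, so they could enter the test only by being high there. Among the other 32, 12 were higher and 8 lower.

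The 250 bases upstream of the transcription start are shown for Mgst1, Gstm5, Gsta3, Gclm and Gsta1. They come from RefSeq on GRCm38.p6 and are written 5′ to 3′ on the gene's strand. Mgst1, Gstm5 and Gsta3 were higher in cisplatin kidneys and hold the 9-base core of the antioxidant response element, TGACNNNGC, on either strand. Gclm holds a core and did not pass the test, and Gsta1, with the largest change, holds none in this window. For Mgst1, the first of 2 RefSeq starts is used, and the second holds 0 cores. Capitals mark the core or its reverse complement.
Mgst1, chr6:138140277-138140526, plus strand: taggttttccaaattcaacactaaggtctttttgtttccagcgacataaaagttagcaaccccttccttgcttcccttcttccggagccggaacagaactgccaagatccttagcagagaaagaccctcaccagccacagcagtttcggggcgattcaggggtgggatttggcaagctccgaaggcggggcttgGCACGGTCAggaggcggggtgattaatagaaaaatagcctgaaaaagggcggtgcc
Gstm5, chr3:107895604-107895853, plus strand: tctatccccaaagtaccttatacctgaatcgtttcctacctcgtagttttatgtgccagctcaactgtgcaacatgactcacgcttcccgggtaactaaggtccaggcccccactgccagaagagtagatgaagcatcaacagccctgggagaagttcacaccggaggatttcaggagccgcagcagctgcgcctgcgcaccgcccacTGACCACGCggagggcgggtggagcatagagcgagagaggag
Gsta3, chr1:21240335-21240584, plus strand: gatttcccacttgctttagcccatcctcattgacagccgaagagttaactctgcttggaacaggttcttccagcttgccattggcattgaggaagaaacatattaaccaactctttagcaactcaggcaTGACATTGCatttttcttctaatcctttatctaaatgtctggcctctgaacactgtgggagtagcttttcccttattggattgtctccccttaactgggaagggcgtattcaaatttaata
Gclm, chr3:122245307-122245556, plus strand: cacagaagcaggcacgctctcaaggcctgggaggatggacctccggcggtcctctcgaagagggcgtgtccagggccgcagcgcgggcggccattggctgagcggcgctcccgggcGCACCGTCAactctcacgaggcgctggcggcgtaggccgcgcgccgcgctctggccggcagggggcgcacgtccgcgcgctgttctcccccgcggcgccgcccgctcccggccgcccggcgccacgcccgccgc
Gsta1, chr9:78230419-78230668, plus strand: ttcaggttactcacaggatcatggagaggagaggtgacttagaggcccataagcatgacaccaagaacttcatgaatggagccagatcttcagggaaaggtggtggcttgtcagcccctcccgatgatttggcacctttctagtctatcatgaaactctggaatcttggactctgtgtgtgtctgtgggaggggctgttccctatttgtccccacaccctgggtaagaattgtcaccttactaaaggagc
The core lay 121 bases before the start in Gsta3 (TGACATTGC) and 42 bases before it in Gstm5 (TGACCACGC), both on the gene's strand. On the other strand it read TGACGGTGC in Gclm, at position -134, and TGACCGTGC in Mgst1, at position -56. Windows from 250 bases before to 50 after a start were present for 37 members, and 6 of these (16.2%) held the core on either strand, against 14.0% of 27025 genes. The other 2, not shown here, were Gstm7, which did not pass, and Ggt1, which was lower in cisplatin kidneys. Ggt1 held a match at 3 of its starts and none at a further start. No window was present for 6 members, among them Gclc, Gsr and Gsta4, so the core could not be looked for in these. The share among members was thus close to that of all genes, and a match is a description of the letters, not of binding.

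Among the enzymes of synthesis, the level of the catalytic subunit Gclc differed from that of its partner Gclm. Gclc (chr9:77754535-77794485) had 545, 305 and 340 FPKM in cisplatin+PCN kidneys, 360, 442 and 393 in cisplatin kidneys, 139, 96.2 and 86.6 in PCN kidneys and 114, 117 and 90.9 in control kidneys. Every library with cisplatin was above every library without it. The log2 change was 1.88 ± 0.22 (SE) in cisplatin against control kidneys (adjusted p = 3.06e-05, limma). Gclm (chr3:122245557-122270732) had 66.0, 61.8 and 67.8 FPKM in cisplatin+PCN kidneys, 55.6, 73.3 and 44.3 in cisplatin kidneys, 68.9, 67.9 and 60.1 in PCN kidneys and 61.7, 66.0 and 65.2 in control kidneys. All 4 groups overlapped, and its log2 change of -0.18 had a 95% interval from -0.50 to 0.13 (adjusted p = 0.285). Without the second cisplatin library, Gclm passed as lower (log2 -0.37, adjusted p = 0.0100). The Gclc to Gclm ratio of FPKM averaged 6.06 ± 1.89 in cisplatin+PCN, 7.12 ± 1.52 in cisplatin, 1.63 ± 0.34 in PCN and 1.67 ± 0.24 in control kidneys (SD, n = 3 each). Gclc and Gclm are both textbook Nrf2 targets, and at this time only Gclc of the pair passed the test.

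The synthetase and the reductase moved in opposite directions. Gss had 45.5, 37.5 and 44.0 FPKM in cisplatin+PCN kidneys, 38.3, 42.6 and 34.9 in cisplatin kidneys, 58.0, 60.1 and 56.0 in PCN kidneys and 57.3, 59.4 and 54.8 in control kidneys. It was lower in cisplatin than in control kidneys by log2 -0.56 ± 0.09 (adjusted p = 0.000265), with no overlap. Gsr had 105, 96.4 and 103 FPKM in cisplatin+PCN kidneys, 127, 125 and 99.6 in cisplatin kidneys, 57.5, 61.4 and 56.7 in PCN kidneys and 63.3, 57.1 and 62.9 in control kidneys. Its log2 change in cisplatin against control kidneys was 0.92 ± 0.09 (adjusted p = 9.98e-06), and the 2 sets of libraries with and without cisplatin were fully separate.

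**Figure D1:**
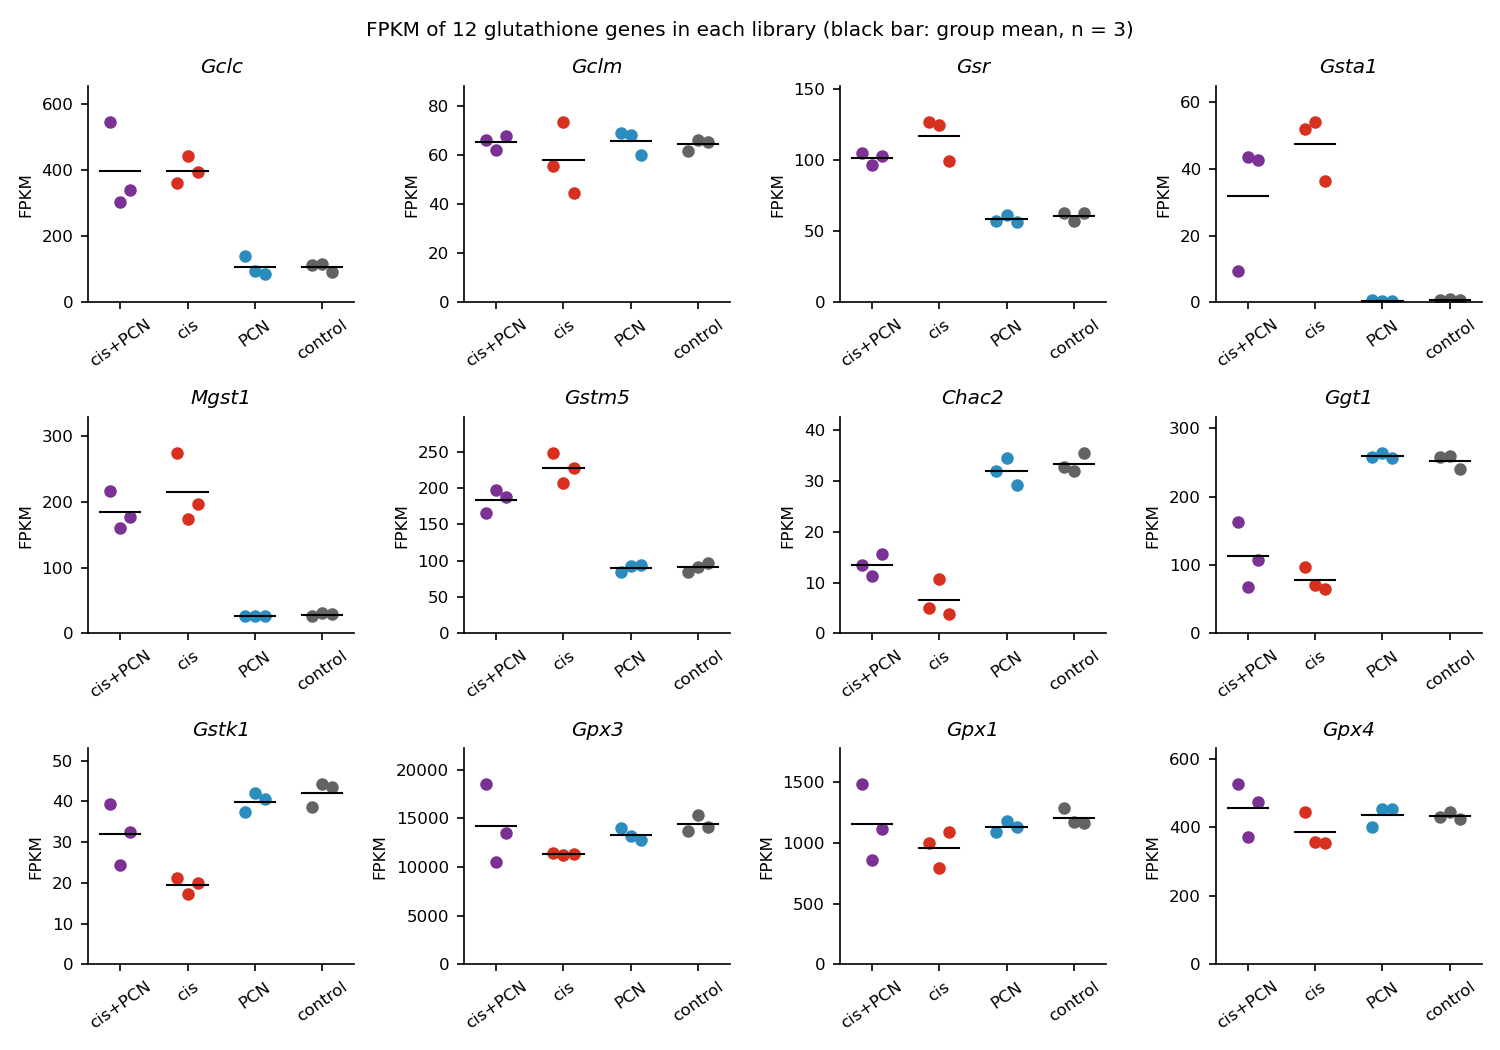
FPKM of 12 of the genes in every library, 1 panel a gene on a linear axis from 0, with groups in the order cisplatin+PCN, cisplatin, PCN and control; points are libraries and lines are group means. Gclc stood at 305 FPKM or more in all 6 libraries with cisplatin and at 139 or less in the other 6, while Gclm overlapped across all 4 groups.

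All 4 alpha-class transferases were higher in cisplatin kidneys. Alpha-class enzymes conjugate a broad range of electrophiles and reduce lipid hydroperoxides. Gsta1 (chr9:78230656-78242684) had 9.32, 43.6 and 42.7 FPKM in cisplatin+PCN kidneys, 52.2, 54.1 and 36.5 in cisplatin kidneys, 0.640, 0.373 and 0.339 in PCN kidneys and 0.727, 0.963 and 0.795 in control kidneys. In reads, these were 224, 1062 and 1033 in cisplatin+PCN libraries, 960, 1195 and 952 in cisplatin libraries, 14, 7 and 7 in PCN libraries and 13, 21 and 17 in control libraries. Its log2 change of 4.71 ± 0.44 in cisplatin against control kidneys (adjusted p = 5.73e-06) was the largest of the members, and on this scale the change of so low a gene is understated. The lone low value among libraries with cisplatin came from the first cisplatin+PCN library.

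Gsta2, its neighbour on chromosome 9, was the most abundant alpha gene in every library. It had 407, 354 and 512 FPKM in cisplatin+PCN kidneys, 397, 398 and 328 in cisplatin kidneys, 160, 162 and 153 in PCN kidneys and 189, 198 and 162 in control kidneys, a log2 change of 1.03 ± 0.13 in cisplatin against control kidneys (adjusted p = 5.64e-05). Of the 50-base stretches of their transcripts, 44.6% of those of Gsta1 also occur in Gsta2 and 32.9% of those of Gsta2 in Gsta1. How shared reads were counted was not given in the sources used here. The split between the pair is therefore uncertain. Gsta4, which conjugates the lipid peroxidation product hydroxynonenal, had 30.2, 43.5 and 62.3 FPKM in cisplatin+PCN kidneys, 75.0, 53.3 and 46.1 in cisplatin kidneys, 25.5, 22.2 and 21.7 in PCN kidneys and 26.1, 25.8 and 28.5 in control kidneys (log2 1.06 ± 0.23 in cisplatin against control, adjusted p = 0.00192). Gsta3 had 61.8, 52.8 and 71.9 FPKM in cisplatin+PCN kidneys, 50.6, 50.6 and 37.7 in cisplatin kidneys, 25.6, 26.3 and 24.0 in PCN kidneys and 25.0, 33.7 and 32.7 in control kidneys. It stood higher in cisplatin than in control kidneys by log2 0.59 ± 0.15 (adjusted p = 0.0051), and its 3 cisplatin+PCN libraries lay above all 3 cisplatin libraries.

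The 7 mu-class genes lie side by side within 149 kb of chromosome 3 (chr3:107895821-108044894), and their changes differed in sign. In cisplatin against control kidneys, 3 were higher and 2 lower of 6 tested. Gstm5, at one end, had 166, 197 and 188 FPKM in cisplatin+PCN kidneys, 248, 208 and 228 in cisplatin kidneys, 84.5, 92.8 and 94.3 in PCN kidneys and 84.1, 91.4 and 97.1 in control kidneys (log2 1.32 ± 0.09 in cisplatin against control, adjusted p = 8.23e-07). Gstm4, at the other end, had 5.69, 7.46 and 7.38 FPKM in cisplatin+PCN kidneys, 5.11, 5.86 and 4.90 in cisplatin kidneys, 10.7, 8.62 and 10.1 in PCN kidneys and 10.1, 9.20 and 8.28 in control kidneys. It was lower in cisplatin than in control kidneys by log2 -0.69 ± 0.11 (adjusted p = 0.000293).

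Gstm1, the most abundant mu gene, was also higher in cisplatin than in control kidneys, by log2 0.74 ± 0.10 (adjusted p = 9.17e-05), and averaged 465 ± 26.7 FPKM in cisplatin+PCN, 432 ± 53.9 in cisplatin, 249 in PCN and 258 ± 24.2 in control kidneys (SD, n = 3 each). Gstm6 averaged only 1.96, 2.28, 0.667 and 0.713 FPKM in cisplatin+PCN, cisplatin, PCN and control kidneys, and differed between cisplatin and control kidneys by log2 0.94 ± 0.16 (adjusted p = 0.000403). Gstm2 had 22.0, 26.4 and 22.8 FPKM in cisplatin+PCN kidneys, 19.3, 25.1 and 22.9 in cisplatin kidneys, 21.5, 18.5 and 24.7 in PCN kidneys and 26.7, 27.3 and 29.7 in control kidneys. Its log2 change of -0.31 ± 0.12 in cisplatin against control kidneys (adjusted p = 0.0400) lost the call under 9 of 20 alternatives, among them leaving out any 1 of the control libraries, the first or the third cisplatin library, the third cisplatin+PCN library or the first PCN library (adjusted p from 0.0512 to 0.158). Gstm7 did not pass (log2 0.03, 95% interval -0.33 to 0.39), and Gstm3 stayed under the expression minimum at 0.301 FPKM or less. Gstm1, Gstm2, Gstm3 and Gstm6 share between 0.961% and 15.8% of their 50-base stretches with one another or with another member, so small differences among them are uncertain.

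**Figure D2:**
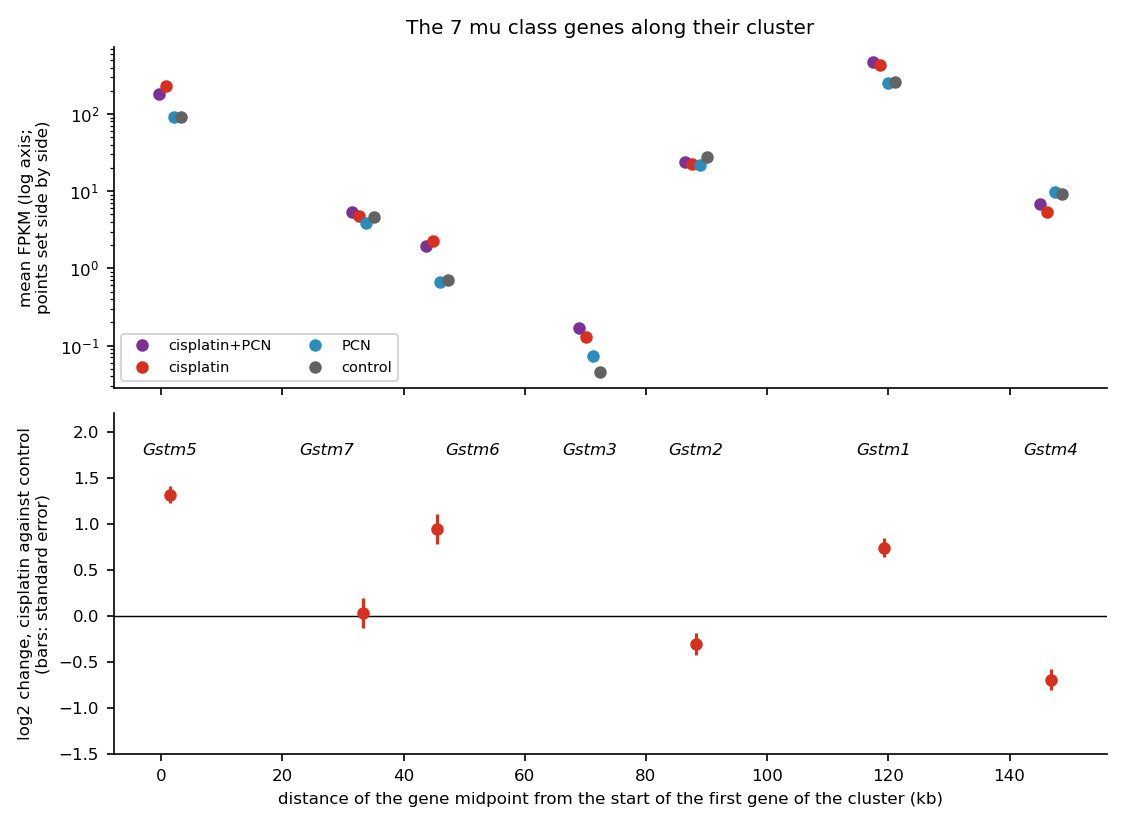
The 7 mu-class genes by distance in kb from the first start of the cluster; the upper panel shows mean FPKM per group on a log axis, with the groups set side by side at each gene, and the lower panel the log2 change in cisplatin against control kidneys with its standard error for the 6 tested genes. Gstm5, Gstm6 and Gstm1 lay above 0, and Gstm2 and Gstm4 below it.

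Of the pi class, 2 of 3 genes were higher in cisplatin kidneys. Gstp1 had 212, 235 and 241 FPKM in cisplatin+PCN kidneys, 291, 263 and 236 in cisplatin kidneys, 135, 138 and 134 in PCN kidneys and 144, 155 and 161 in control kidneys (log2 0.77 ± 0.09 in cisplatin against control, adjusted p = 2.03e-05). Gstp3 had 5.11, 2.83 and 5.80 FPKM in cisplatin+PCN kidneys, 6.52, 5.07 and 5.54 in cisplatin kidneys, 0.247, 0.503 and 0.326 in PCN kidneys and 0.151, 0.247 and 0.126 in control kidneys. The log2 change of Gstp3 in cisplatin against control kidneys was 2.51 ± 0.18 (adjusted p = 9.06e-07), from a level near that of few reads. Gstp2, which shares 44.3% of its 50-base stretches with Gstp1, ranged from 0.465 to 6.68 FPKM over all libraries and had the widest interval of the members (log2 0.86, -0.30 to 2.01). Without the third cisplatin library Gstp2 passed, at log2 1.42 (adjusted p = 0.0255).

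Of the remaining soluble classes, the 1 tested omega gene was higher in cisplatin kidneys, while the kappa gene and 1 of 3 tested theta genes were lower. Gstk1, a transferase of mitochondria and peroxisomes, had 39.4, 24.3 and 32.5 FPKM in cisplatin+PCN kidneys, 21.3, 17.2 and 19.9 in cisplatin kidneys, 37.3, 41.9 and 40.6 in PCN kidneys and 38.6, 44.2 and 43.5 in control kidneys. It was lower in cisplatin than in control kidneys by log2 -1.08 ± 0.15 (adjusted p = 8.00e-05). Gstt1 had 66.8, 51.7 and 66.2 FPKM in cisplatin+PCN kidneys, 51.6, 48.2 and 47.3 in cisplatin kidneys, 61.9, 66.1 and 67.3 in PCN kidneys and 58.2, 78.9 and 70.8 in control kidneys (log2 -0.48 ± 0.12 in cisplatin against control, adjusted p = 0.00484). Gstt2 and Gstt3 did not pass, and Gstt4 stayed at 0.266 FPKM or less. Gsto1, which also reduces dehydroascorbate, had 41.7, 39.9 and 37.3 FPKM in cisplatin+PCN kidneys, 47.2, 42.9 and 51.1 in cisplatin kidneys, 24.2, 22.6 and 21.2 in PCN kidneys and 24.6, 27.7 and 24.7 in control kidneys (log2 0.85 ± 0.08 in cisplatin against control, adjusted p = 7.89e-06).

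Summed over the 21 soluble transferases, FPKM averaged 1677 ± 145 in cisplatin+PCN, 1664 ± 157 in cisplatin, 901 ± 10.2 in PCN and 974 ± 62.6 in control kidneys (SD, n = 3 each). Of the 18 tested, 10 were higher and 4 lower in cisplatin than in control kidneys, against 32.0% and 31.9% of all tested genes. Among the 10 were Gsta1, Gstm6 and Gstp3, which reached the expression minimum only through libraries with cisplatin. The mu genes held the largest part, at 687 ± 31.0, 695 ± 59.8, 376 ± 3.65 and 391 ± 26.7 FPKM in the same order, and the alpha genes 564 ± 109, 526 ± 68.3, 207 ± 7.18 and 241 ± 16.9.

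**Figure D3:**
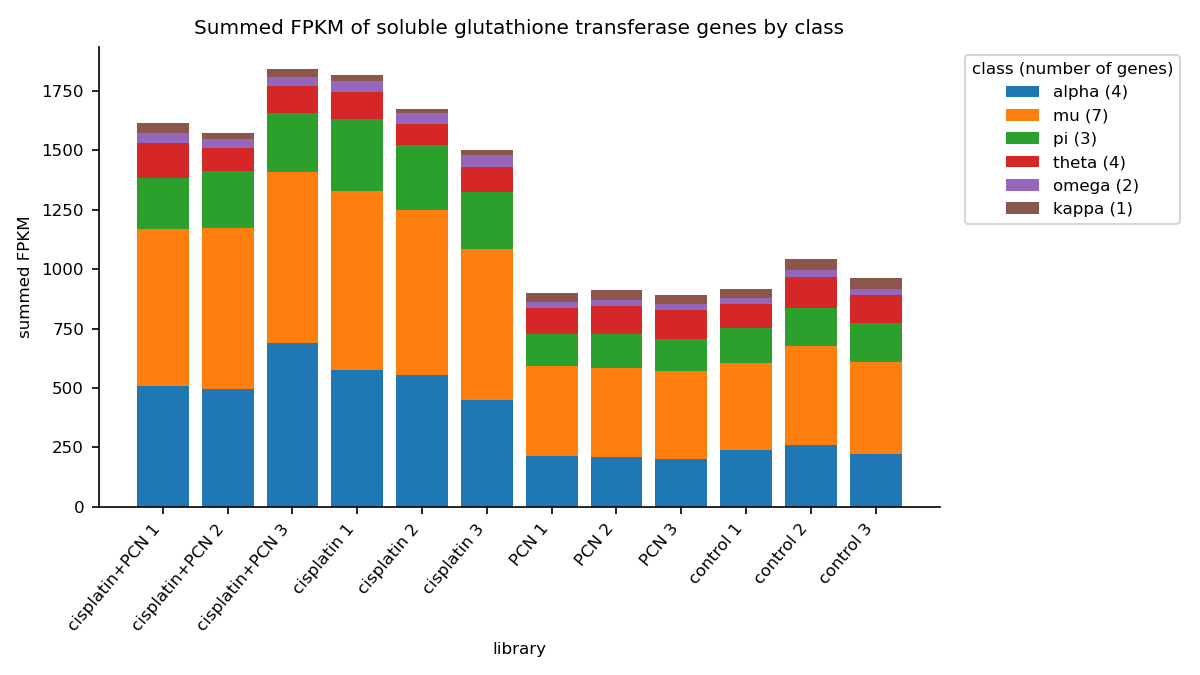
Summed FPKM of the soluble transferases by class in each of 12 libraries, with stacked bars from 0 on a linear axis and groups in the order cisplatin+PCN, cisplatin, PCN and control. The 6 libraries with cisplatin stood between 1502 and 1843 FPKM and the other 6 between 893 and 1042.

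The microsomal enzyme Mgst1, a membrane transferase and peroxidase of the endoplasmic reticulum and mitochondrial outer membrane, had the largest change among members that were above the minimum without cisplatin. It had 216, 161 and 178 FPKM in cisplatin+PCN kidneys, 275, 174 and 198 in cisplatin kidneys, 26.5, 26.0 and 25.9 in PCN kidneys and 26.5, 30.9 and 29.3 in control kidneys. Its log2 change in cisplatin against control kidneys was 2.83 ± 0.15 (adjusted p = 1.47e-07), and the groups with and without cisplatin were far apart. Mgst3 averaged 116 ± 5.79 FPKM in cisplatin+PCN, 100 ± 5.43 in cisplatin, 82.5 ± 6.42 in PCN and 90.6 ± 5.09 in control kidneys (SD, n = 3 each), and did not pass in cisplatin against control kidneys (log2 0.14, 95% interval -0.03 to 0.32). Mgst2 stayed at 0.117 FPKM or less.

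The peroxidases held most of the summed FPKM of these genes, and 1 of 6 tested passed in cisplatin against control kidneys. Gpx3, the secreted peroxidase of plasma that is made mainly by the kidney tubule, ranked between 2 and 5 among all genes in each library and held 71.9% to 81.5% of the members' summed FPKM. It had 18532, 10517 and 13517 FPKM in cisplatin+PCN kidneys, 11441, 11276 and 11303 in cisplatin kidneys, 13995, 13152 and 12778 in PCN kidneys and 13671, 15355 and 14134 in control kidneys. Every cisplatin library was below every control library. The log2 change of -0.34 ± 0.16 missed the threshold (adjusted p = 0.0917) in the fit of all 12 libraries, which share 1 estimate of spread. With only the cisplatin and control libraries in the fit the same change passed (adjusted p = 0.00416), and likewise without the first cisplatin+PCN library (adjusted p = 0.00757) or without the second (adjusted p = 0.0187). In all, Gpx3 passed under only 4 of 20 alternatives, with an adjusted p of up to 0.761 among the rest (limma).

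Gpx1, the main cytosolic peroxidase, had 1484, 861 and 1116 FPKM in cisplatin+PCN kidneys, 1002, 791 and 1087 in cisplatin kidneys, 1088, 1177 and 1128 in PCN kidneys and 1289, 1169 and 1161 in control kidneys. It did not pass in cisplatin against control kidneys (log2 -0.34 ± 0.17, adjusted p = 0.110), but did without the first or the second cisplatin+PCN library (adjusted p = 0.0348 and 0.0430). In all, Gpx1 passed under only 3 of 20 alternatives, with an adjusted p of up to 0.345 among the rest (limma). Gpx4, which reduces lipid hydroperoxides in membranes and guards against ferroptosis, had 526, 371 and 473 FPKM in cisplatin+PCN kidneys, 445, 358 and 355 in cisplatin kidneys, 402, 454 and 454 in PCN kidneys and 429, 445 and 425 in control kidneys (log2 -0.17, 95% interval -0.46 to 0.11, adjusted p = 0.261). Gpx6, a paralogue of Gpx3, had 26.0, 28.4 and 21.2 FPKM in cisplatin+PCN kidneys, 19.3, 21.6 and 26.3 in cisplatin kidneys, 40.4, 48.1 and 46.9 in PCN kidneys and 32.2, 51.5 and 51.1 in control kidneys. It was the 1 peroxidase of 6 tested that passed, lower in cisplatin than in control kidneys by log2 -0.95 ± 0.18 (adjusted p = 0.000891). Gpx7 and Gpx8, of the endoplasmic reticulum, did not pass, and Gpx2 and Gpx5 were under the minimum. Gpx2 had 0, 4 and 0 reads in cisplatin+PCN libraries and 2, 5 and 6 in cisplatin libraries, against 0 in every PCN and control library, and Gpx5 had 0 reads throughout.

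Of the enzymes that break glutathione down, Chac2 and Ggt1 were lower in cisplatin kidneys. Chac2, a cytosolic cyclotransferase that cleaves glutathione, had 13.4, 11.3 and 15.6 FPKM in cisplatin+PCN kidneys, 4.98, 10.7 and 3.82 in cisplatin kidneys, 31.9, 34.6 and 29.3 in PCN kidneys and 32.8, 32.0 and 35.5 in control kidneys. It fell by more than any other member in cisplatin against control kidneys, at log2 -2.30 ± 0.26 (adjusted p = 1.85e-05). Ggt1, the gamma-glutamyltransferase of the brush border, had 163, 68.1 and 107 FPKM in cisplatin+PCN kidneys, 97.5, 71.0 and 65.5 in cisplatin kidneys, 258, 264 and 257 in PCN kidneys and 258, 259 and 240 in control kidneys (log2 -1.70 ± 0.25 in cisplatin against control, adjusted p = 0.000133). The libraries with cisplatin lay below all others for both genes. Of 8 proximal tubule markers, 8 were lower in cisplatin than in control kidneys, and their part in the lower Ggt1 and Chac2 was not tested. Thick ascending limb markers were lower for 3 of 4 genes and distal tubule and collecting duct markers for 3 of 6 (1 higher). Fibroblast and smooth muscle markers were higher for 2 of 4. Podocyte and endothelial markers each had 1 higher and 1 lower of 4. These counts stand beside backgrounds of 32.0% of all tested genes higher and 31.9% lower.

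Oplah, the oxoprolinase that returns glutamate to the cycle, averaged 70.3 ± 18.8 FPKM in cisplatin+PCN, 59.1 ± 9.22 in cisplatin, 40.3 ± 2.32 in PCN and 34.4 ± 2.33 in control kidneys (SD, n = 3 each; log2 0.76 ± 0.16 in cisplatin against control, adjusted p = 0.00208). Ggt5, which cleaves leukotriene C, averaged 1.42 FPKM in cisplatin+PCN and 1.52 in cisplatin kidneys, against 0.855 in PCN and 0.695 in control kidneys (log2 0.56 ± 0.14 in cisplatin against control, adjusted p = 0.00393). Glrx, a glutaredoxin that removes glutathione from protein thiols, had 16.8, 12.1 and 11.7 FPKM in cisplatin+PCN kidneys, 31.2, 17.2 and 24.3 in cisplatin kidneys, 5.35, 6.62 and 10.8 in PCN kidneys and 6.14, 6.34 and 6.25 in control kidneys. It was higher in cisplatin than in control kidneys by log2 1.76 ± 0.24 (adjusted p = 8.65e-05).

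**Figure D4:**
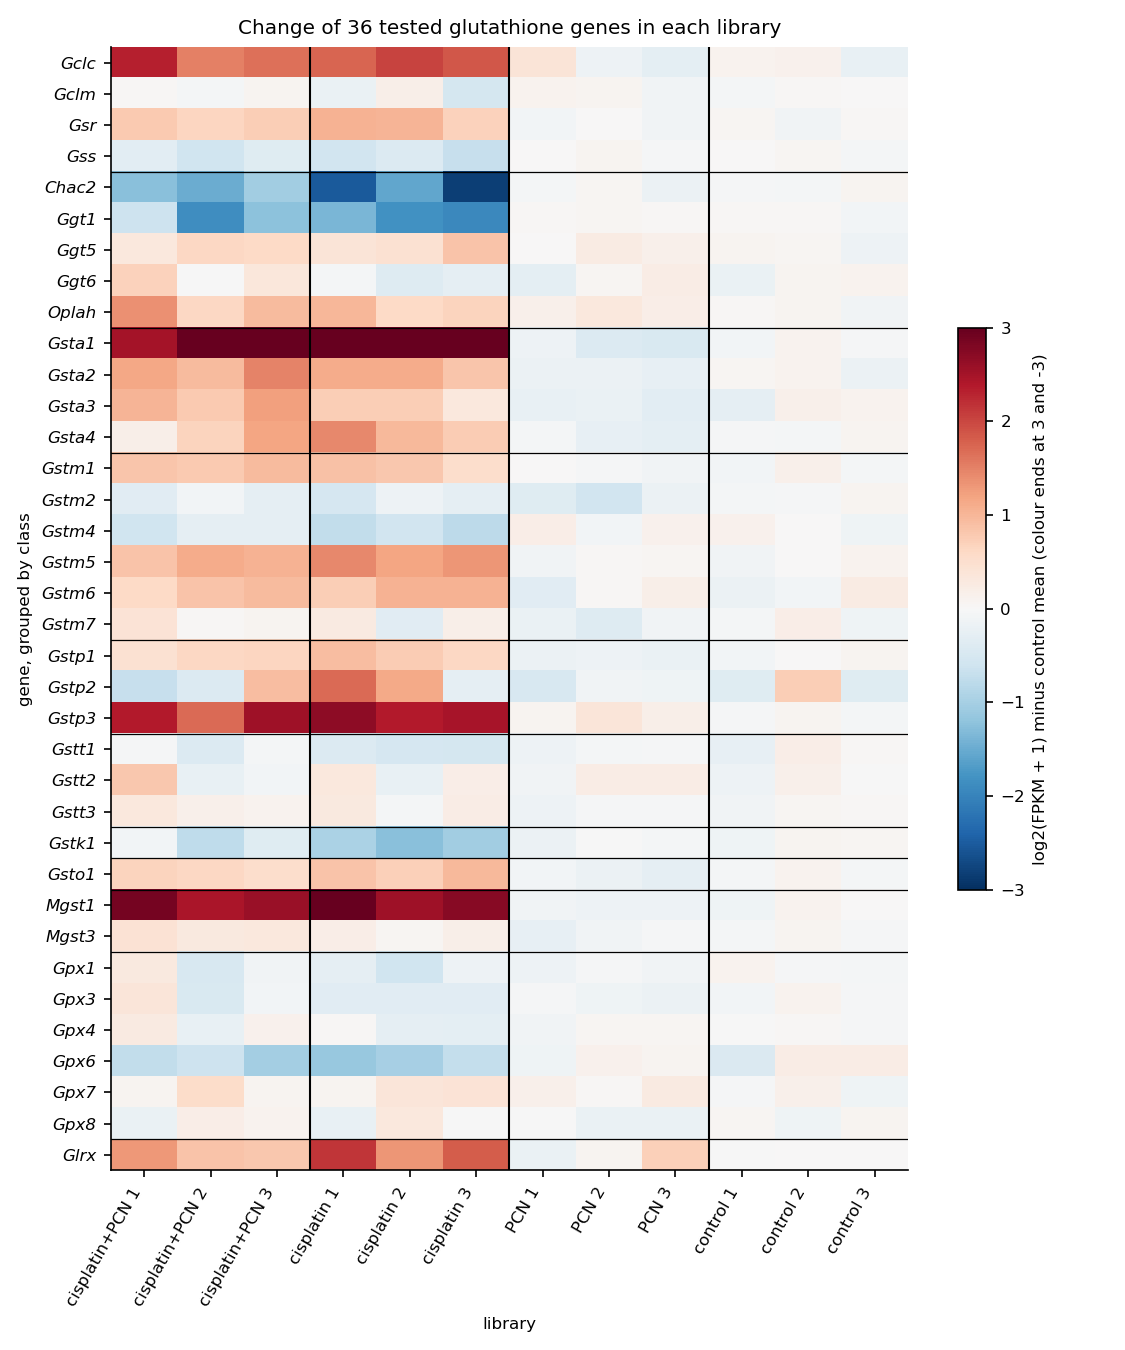
FPKM of the 36 tested members in each of 12 libraries as log2(FPKM + 1) minus the mean of the 3 control libraries (red above it, blue below it, with colours ending at 3 and -3), with columns in the order cisplatin+PCN, cisplatin, PCN and control. Gsta1, Mgst1, Gstp3 and Gclc were above control in all 6 libraries with cisplatin, Chac2 and Ggt1 below it, and the PCN columns lay near 0.

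PCN alone left no member past the threshold. Of 36 tested members, 0 were higher and 0 lower in PCN than in control kidneys (limma), where the background was 0.0% of 13540 genes, and limma-voom on recovered reads also called 0. At an unadjusted p under 0.05 there was 1 member, Gstm2 (log2 -0.37 ± 0.12), among 438 genes in all. The PCN libraries did not overlap the control libraries for 1 higher member, Oplah, and 5 lower members, Gsta1, Gsta4, Gstm2, Gsto1 and Gstp1, with backgrounds of 6.12% and 7.18%. The 95% interval of the change lay within 0.5 log2 units of 0 for 23 members and within 1 unit for 34. Gclc had a log2 change of -0.02 (-0.52 to 0.47), Mgst1 of -0.14 (-0.47 to 0.20), Gsta2 of -0.20 (-0.49 to 0.09) and Gsta1, with 7 to 21 reads a library in these groups, of -0.34 (-1.32 to 0.64). For these 4 genes, changes of the size seen with cisplatin lay outside the interval, while smaller ones could not be told from none.

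The cisplatin effect was also measured in mice that had PCN, which compares cisplatin+PCN with PCN kidneys and shares no library with cisplatin against control. Of 36 tested members, 18 were higher and 5 lower, so 63.9% were called against a background of 46.9%. By direction, the background was 23.5% higher, against 18 of 36 members, and 23.4% lower, against 5 of 36. The groups did not overlap for 19 higher and 5 lower members, with backgrounds of 30.0% and 29.3%. All 16 members higher in cisplatin against control kidneys were also higher here (88.9% of the 18), with Mgst3 and Gstt3 added. Without the 4 members that reached the minimum only through libraries with cisplatin, 14 of 32 were higher and 5 lower. The 5 lower members, Chac2, Ggt1, Gpx6, Gstm4 and Gss, were all lower in cisplatin against control kidneys as well (62.5% of those 8), where Gstk1, Gstm2 and Gstt1 were lower too. The share of calls common to both comparisons was not counted over all tested genes, so these overlaps have no background. Both comparisons also rest on 1 estimate of spread. The log2 changes with PCN, beside those without it, were 4.24 and 4.71 for Gsta1, 2.76 and 2.83 for Mgst1, 1.86 and 1.88 for Gclc and 1.40 and 1.03 for Gsta2. Among lower members they were -1.20 and -2.30 for Chac2 and -1.28 and -1.70 for Ggt1. Without the first cisplatin+PCN library 16 members were higher and 6 lower, beside 3064 and 3234 of all 13540 tested genes. Against control kidneys, cisplatin+PCN kidneys had 17 members higher and 6 lower (13 and 6 of 32 without those 4), 63.9% against a background of 46.6% (23.0% higher and 23.6% lower). Their libraries did not overlap the control libraries for 18 higher and 6 lower members, with backgrounds of 28.7% and 28.8%.

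**Figure D5:**
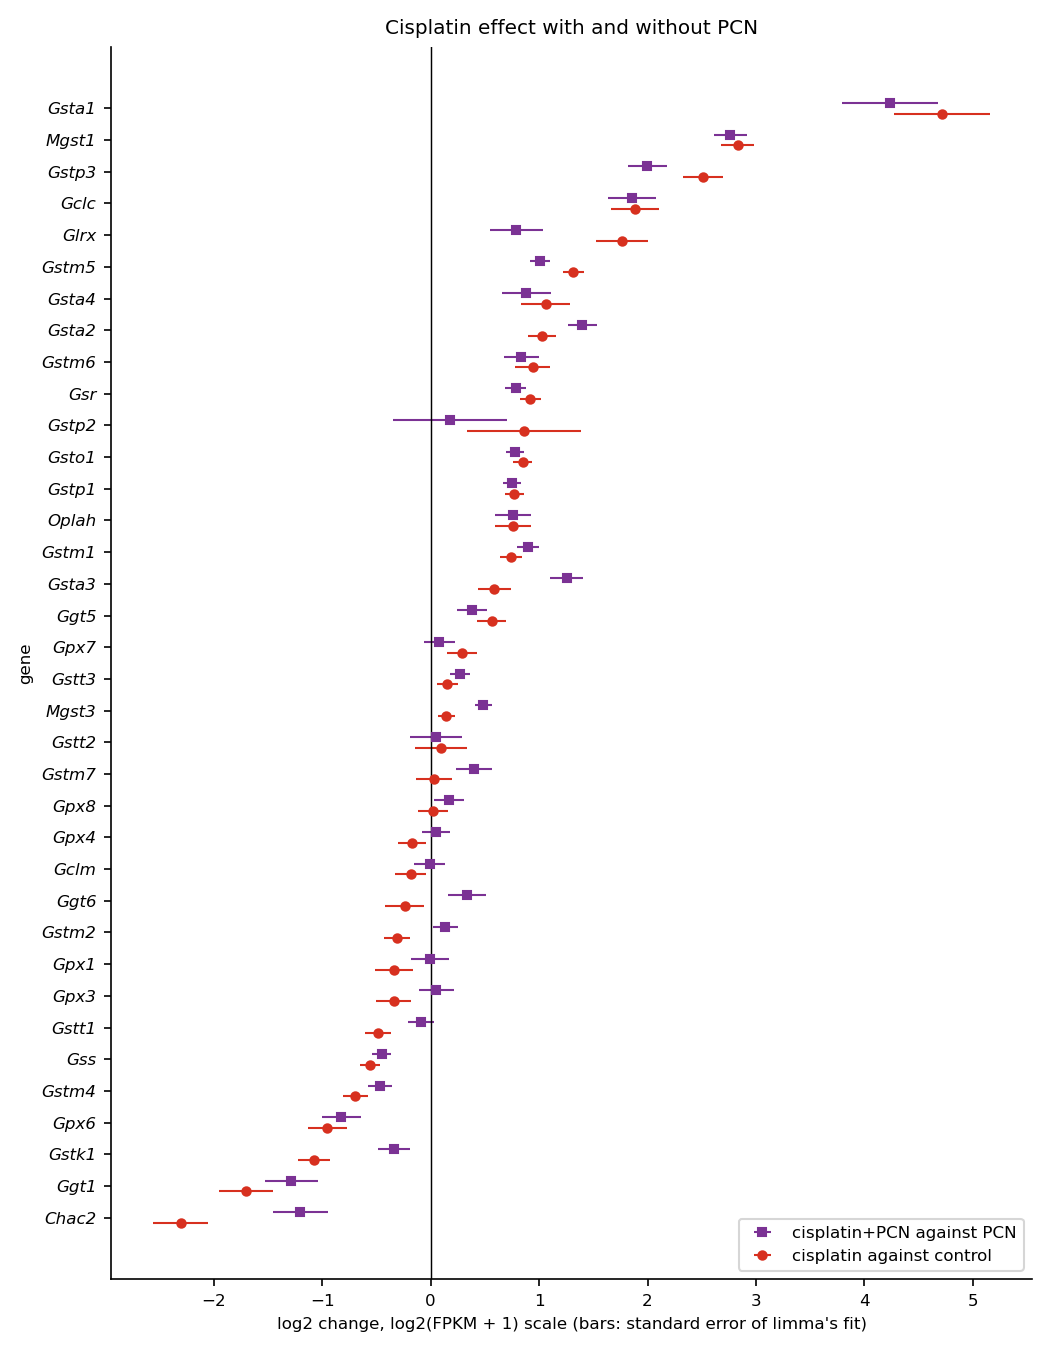
Log2 change of the 36 tested members on the log2(FPKM + 1) scale, with bars for the standard error, in cisplatin+PCN against PCN kidneys (squares) and in cisplatin against control kidneys (circles). Gsta1, Mgst1, Gstp3 and Gclc lay far above 0 in both, at 4.24 and 4.71 for Gsta1, and Chac2 and Ggt1 below it.

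Between cisplatin+PCN and cisplatin kidneys, 3 members passed. Chac2 and Gstk1 were higher and Gstm5 lower with PCN, which is 8.33% of the members against a background of 15.6% of all tested genes (7.97% higher and 7.61% lower). Chac2 stood higher in cisplatin+PCN than in cisplatin kidneys by log2 1.04 ± 0.26 (adjusted p = 0.0253), Gstk1 by log2 0.67 ± 0.15 (adjusted p = 0.0173), and Gstm5 was lower by log2 -0.31 ± 0.09 (adjusted p = 0.0479). For all 3 the cisplatin+PCN libraries did not overlap the cisplatin libraries. The calls were lost when some single libraries were left out, while the differences kept their direction. For Chac2 this held without the first or the third library of either group with cisplatin (log2 0.77 to 1.03, adjusted p from 0.0575 to 0.0855), for Gstk1 without the third of either group (log2 0.65 and 0.69, adjusted p = 0.0594 and 0.0525), and for Gstm5 under 14 of 20 alternatives (log2 -0.33 to -0.24). With only the cisplatin+PCN and cisplatin libraries in the fit, 0 members passed, and 1 of all 13540 genes did.

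Groups did not overlap for 6 members that were higher in cisplatin+PCN than in cisplatin kidneys and 3 that were lower, where the background was 14.8% and 14.6% of tested genes. The higher ones were Gsta3, Chac2, Ggt6, Gstk1, Mgst3 and Gstt1, and the lower ones Glrx, Gstm5 and Gsto1. Of these, Ggt6 (log2 0.58 ± 0.18, adjusted p = 0.0522) and Glrx (log2 -0.78 ± 0.24, adjusted p = 0.0527) missed the threshold most narrowly. Ggt6 averaged 6.86 ± 1.90 FPKM in cisplatin+PCN, 4.19 ± 0.627 in cisplatin, 5.17 ± 1.06 in PCN and 5.12 ± 0.665 in control kidneys (SD, n = 3 each). For Glrx, Gstm5 and Gsto1 all cisplatin+PCN libraries lay between the cisplatin libraries above and the control libraries below, and for Chac2 between the control libraries above and the cisplatin libraries below. How many of all tested genes had such an order was not counted, so it cannot be called particular to these members. Of 8 proximal tubule markers, 6 were higher in cisplatin+PCN than in cisplatin kidneys, against 7.97% of all tested genes. The count was 5 without the first cisplatin+PCN library, 7 without the second and 0 with only the groups compared in the fit. The part of these markers in the differences of Chac2 and Gstk1 was not tested.

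The 4 members that cisplatin raised most did not pass between cisplatin+PCN and cisplatin kidneys. The log2 difference was -0.82 for Gsta1 (95% interval -1.80 to 0.16), -0.20 for Mgst1 (-0.54 to 0.14), -0.30 for Gstp3 (-0.71 to 0.10) and -0.05 for Gclc (-0.54 to 0.44). Without the first cisplatin+PCN library, the difference was -0.12 for Gsta1 and -0.30 for Gclc. Ggt1 had a difference of 0.46 (-0.09 to 1.01), which was 0.15 without the first cisplatin+PCN library and passed without the second (log2 0.78, adjusted p = 0.0177). Leaving out that library gave 8 members higher, beside 1384 of all 13540 tested genes. Leaving out the third cisplatin+PCN or the third cisplatin library gave 0 members, beside 303 and 294 of all tested genes.

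The interaction, which asks whether the cisplatin effect differed between mice with and without PCN, passed for 0 of 36 members (limma, background 0.111%, or 15 of 13540 genes, with 0.0739% higher and 0.0369% lower). At an unadjusted p under 0.05 there were 9 members (25.0%), against 19.3% of all tested genes. The largest were Chac2 (log2 1.10 ± 0.36, adjusted p = 0.154), Glrx (-0.97 ± 0.34, adjusted p = 0.172), Gstk1 (0.74 ± 0.21, adjusted p = 0.123) and Gsta3 (0.66 ± 0.21, adjusted p = 0.147). Chac2 passed without the second cisplatin library (log2 1.48, adjusted p = 0.00375), in which it stood at 10.7 FPKM beside 4.98 and 3.82, and Gstk1 passed without the second cisplatin+PCN library (log2 0.92, adjusted p = 0.0203).

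Genes that feed or follow glutathione were read from lists of the pathway, beside the backgrounds of 32.0% of tested genes higher and 31.9% lower in cisplatin against control kidneys. Of the gamma-glutamyl cycle and mercapturate enzymes, 2 were higher and 7 lower of 10 tested in cisplatin against control kidneys. Acy3, an aminoacylase of mercapturates, was lower by log2 -2.64 ± 0.17, Dpep1, the dipeptidase that cleaves cysteinylglycine, by -1.89 ± 0.15, and Nat8, which acetylates cysteine conjugates, by -1.79 ± 0.34. Of the cystine and cysteine supply genes, 2 were higher and 6 lower of 8. Slc7a13, a cystine transporter of the late proximal tubule, had 32.4, 6.40 and 12.8 FPKM in cisplatin+PCN kidneys, 5.34, 3.62 and 2.59 in cisplatin kidneys, 553, 582 and 500 in PCN kidneys and 434, 538 and 515 in control kidneys. Acy3 and Slc7a13 are also markers of that tubule segment, of which 5 of 5 were lower. Cbs, the first enzyme of transsulfuration, was lower by log2 -1.64 ± 0.14. In cisplatin+PCN against cisplatin kidneys, 2 of 10 and 4 of 8 genes of these lists were higher and none lower, against 7.97% and 7.61% of all tested genes. Slc7a13 was among them (log2 1.67 ± 0.42, adjusted p = 0.0260, and 1.10 without the first cisplatin+PCN library, adjusted p = 0.0372). With only the groups compared in the fit, 0 genes of either list passed.

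The Nrf2 system and the exporters of conjugates were mostly higher in cisplatin than in control kidneys. Of 10 genes of the Nrf2 list, 8 were higher and 1 lower. Srxn1, the sulfiredoxin, had 97.1, 174 and 176 FPKM in cisplatin+PCN kidneys, 255, 330 and 186 in cisplatin kidneys, 22.6, 24.9 and 22.9 in PCN kidneys and 23.3, 25.4 and 26.8 in control kidneys (log2 3.26 ± 0.23 in cisplatin against control). Hmox1, the haem oxygenase, was higher by log2 2.46 ± 0.25 and Nqo1, a quinone reductase, by 2.24 ± 0.18. In cisplatin+PCN against cisplatin kidneys 5 of the 10 were lower and none higher, against 7.61% and 7.97% of all tested genes. Hmox1 (log2 -0.90 ± 0.25, adjusted p = 0.0359) and Srxn1 (-0.79 ± 0.23, adjusted p = 0.0433) were among them. Without the first cisplatin+PCN library 1 of the 10 was lower, with Hmox1 at -0.62 (adjusted p = 0.0850) and Srxn1 at -0.51 (adjusted p = 0.0958), and with only the groups compared in the fit 0 were. Of 7 exporters, 6 were higher in cisplatin than in control kidneys, with Abcc3 at log2 2.01 ± 0.19 and Abcc4 at 0.73 ± 0.12, and Abcc3 was the 1 that was lower in cisplatin+PCN than in cisplatin kidneys (log2 -0.66 ± 0.19, adjusted p = 0.0404, and -0.41 without the first cisplatin+PCN library, adjusted p = 0.0754).

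The median log2 change in cisplatin against control kidneys was -1.21 over the gamma-glutamyl cycle and mercapturate list, -1.03 over cystine and cysteine supply, 1.47 over the Nrf2 list and 0.43 over the exporters, beside 0.01 over all tested genes. Of the other glutaredoxin, thioredoxin and glyoxalase genes, 6 were higher and 4 lower of 11 in cisplatin against control kidneys, led by the thioredoxin reductase Txnrd1 (log2 1.66 ± 0.13), Esd, which hydrolyses formylglutathione (0.72 ± 0.09), and Glrx3 (0.62 ± 0.06). Of 8 genes of selenoprotein synthesis, on which the selenoproteins Gpx1, Gpx3 and Gpx4 depend, 1 was higher and 6 lower. Sepsecs, which makes selenocysteine on its transfer RNA, was lower by log2 -1.07 ± 0.09 and the selenium carrier Selenop by -1.06 ± 0.24, while the Selenop receptor Lrp8 was higher by 1.05 ± 0.09. Other genes with a transferase fold or of the microsomal family gave 3 higher and 3 lower of 11, with Clic1 at log2 1.38 ± 0.11, Clic3 at -1.54 ± 0.14 and Clic5 at -1.04 ± 0.12.

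Markers of blood cells also differed between the groups. Neutrophil genes summed to 4.15 to 23.6 FPKM in cisplatin+PCN kidneys and 18.1 to 29.4 in cisplatin kidneys, against 0.979 to 1.72 in PCN kidneys and 2.28 to 3.57 in control kidneys, with the defining gene Ly6g at 0 in PCN and control libraries. Of the 4 neutrophil genes only 2, S100a8 and S100a9, passed the expression minimum, and Ly6g did not. Macrophage genes summed to 28.5 to 52.0 FPKM in cisplatin+PCN kidneys, 46.7 to 57.1 in cisplatin kidneys, 28.4 to 34.1 in PCN kidneys and 29.1 to 37.5 in control kidneys. The 4 macrophage genes did not move together. In cisplatin against control kidneys Cd68 and C1qa were higher and Csf1r lower, against 32.0% and 31.9% of all tested genes. In cisplatin+PCN against PCN kidneys 2 were higher and 2 lower (Csf1r and Adgre1), against 23.5% and 23.4%. Liver markers summed to 33.6 to 48.7 FPKM in cisplatin+PCN kidneys, 35.6 to 51.0 in cisplatin kidneys, up to 106 in PCN kidneys and 80.7 to 89.7 in control kidneys, and adrenal cortex markers to 1.06 FPKM or less in every library. The part of these cells in the transferase levels was not tested.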

How the data were processed

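Kidney RNA was sequenced in 12 libraries, 3 in each of 4 groups taken from the library titles. The authors deposited gene FPKM, which were used as deposited; HISAT2 2.0.5, featureCounts 1.5.0-p3, DESeq2 1.16.1 and edgeR 3.18.1 are named without roles, per the submitters' processing notes. Those notes name build mm8, but 49907 of 52403 gene identifiers found in GENCODE M21 (95.2%), and 37 of the 43 members, have their GRCm38 coordinates, so the deposited coordinates are read as GRCm38. FPKM times gene length gave whole reads for 100% of values within 0.001 reads. The use of strand in counting was not given in the sources used here. Reads of overlapping genes on opposite strands therefore cannot be told apart.

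Genes that reached FPKM 1 in 3 or more of the 12 libraries were tested with limma 3.58.1 in R 4.3.3 (intensity trend) on log2(FPKM + 1), in 1 fit of 4 group means, two-sided, with Benjamini-Hochberg adjustment over 13540 genes within each of 6 comparisons and a threshold of 0.05. The chi-square per gene between replicates of a group was 4.97 to 78.7, above sampling noise, so none was taken as a library deposited again. The fits were tested on simulated data. Values in every library are given for a fixed panel of Gclc, Gclm, Gss, Gsr, Ggt1, Gpx1, Gpx3, Gpx4 and Gstp1 and for up to 8 members in each direction with the largest change past the threshold and groups that do not overlap, in cisplatin against control and in cisplatin+PCN against cisplatin. Gsta3 and Gsto1 were added after their values were seen. Other lists give up to 3 members by size of change. The members and lists were chosen with earlier results of these data known. Alternatives were other pseudocounts (0.1 and 0.5), no filter, other scalings, only the groups compared, the replicate block, limma-voom on recovered reads, and fits without each library in turn. The pathway and marker lists without a cisplatin+PCN library or with only the groups compared, and the counts without the 4 members tested only through cisplatin, were added after the data were seen.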

Additional observations from a re-analysis of the deposited data

How the results depend on the processing

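Over 4284 combinations of member, comparison and alternative, 4172 kept their side of the threshold, 73 lost a call and 39 gained one. A change of sign was counted only where 1 of the 2 fits passed, and there were 0 of these. Changes that passed in neither fit could differ in sign. For example, Gclc in cisplatin+PCN against cisplatin ranged from log2 -0.30 to 0.12 over the alternatives. Counts in cisplatin against control ranged over leave-one-out from 16 to 17 higher and 7 to 10 lower, in cisplatin+PCN against PCN from 15 to 19 and 5 to 6, in cisplatin+PCN against control from 16 to 17 and 5 to 6, and in PCN against control were 0 throughout. The exceptions lie in cisplatin+PCN against cisplatin. There the count higher, 2 as reported, was 1 with no filter, 4 after rescaling that left out mitochondrially encoded and the 50 highest genes, 0 with only the groups compared, and 0 to 8 over leave-one-out. The count lower, 1 as reported, was 0 with no filter, 0 with only the groups compared, 2 by limma-voom, and 0 to 3 over leave-one-out. Over all 13540 tested genes, leave-one-out gave 294 to 1706 higher and 286 to 1684 lower in the same comparison. The count of higher interactions, 0 as reported, was 0 to 1. With a longer core, TGACNNNGC followed by A, 2.70% of members and 3.45% of all genes held a match. Median-of-ratios scaling changed no value, since its factors came to 1 in every library. This alternative therefore repeated the main fit and could not have differed from it. Its 216 combinations are among the 4172 above.

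Replicate numbers are given in the titles. The deviations of same-numbered libraries correlated at -0.281 to 0.366, with 4 of 18 pairs over 0.1. For cisplatin+PCN with cisplatin they were 0.366, 0.239 and -0.281 for numbers 1, 2 and 3. For PCN with control they were 0.222, 0.158 and 0.028. With the replicate block the count lower in cisplatin+PCN against cisplatin was 0, and 4 member calls were lost in all.

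With 3 libraries a group, the 95% interval of a member's change had a median half-width of 0.33 log2 units and was 0.17 at the narrowest. Members near FPKM 1 rest on few reads, and Gsta1 with Gsta2, and Gstp1 with Gstp2, share too much sequence for their split to be firm.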
